A study of Mus musculus with 4 samples.

Results

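Nuclear receptors and hepatocyte transcription factors are the 41 genes described here, out of 34761 genes on the array. They were taken by name: 10 hepatocyte identity factors, 9 metabolic sensors with their retinoid X receptor (RXR) partners, 9 receptors for hormones and vitamins, 12 orphan receptors and the coactivator Ppargc1b. Their RNA was measured in liver of male C57BL/6 mice, an inbred laboratory strain, fed a high-fat, high-sucrose (HFHS) diet. The mice were 5 weeks old when feeding began, and livers were taken after 0, 5, 10 or 15 weeks, at ages of 5, 10, 15 and 20 weeks. All mice were of 1 sex and strain, with no genetic change named in the labels. There is 1 array per time, the study speaks of 4 mice per time, and whether an array carries 1 mouse or a pool is not given in the sources used here. Time on the diet and age cannot be told apart, and all comparisons with 0 weeks share the same 0-week array. With 1 array per time no difference has a replicate check and no test was made.

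Nuclear receptors are transcription factors whose activity is set by small lipid-soluble molecules such as bile acids, oxysterols, steroids, thyroid hormone and retinoids, and many of them bind DNA as a pair with RXR. In hepatocytes HNF4A, the FOXA proteins, the C/EBP proteins and HNF6 (the product of Onecut1) hold each other's genes and a large part of the liver-specific genes active. Orphan receptors have no established natural ligand, and those of the NR4A family are made rapidly after a stimulus and act without one. Since ligand, partner and cofactor set what a receptor does, its RNA level and its activity are separate quantities.

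Values below are log2 scaled signals: the log2 of a probe's fluorescence minus that of the array's 75th percentile, so that 0 is the signal of the 75th-percentile spot. They compare a probe with itself across arrays, not one gene with another. A gene counts as measured between 2 arrays where its probe cleared background on each of them, and as called where they differed 2-fold or more. Between 44.5% and 48.3% of spots were well above background, and the 248 to 263 probes printed repeatedly on an array had a median SD between spots of 0.0634 to 0.0729 on the log2 scale. That SD covers spots of an array, not mice. At 15 weeks the median of all 17562 measured genes lay at a log2 difference of −0.25 from 0 weeks, against −0.02 at 5 weeks and −0.01 at 10 weeks. This 15-week shift depends on the scaling: it was −0.18 with the array median, −0.19 with normexp background correction, −0.08 with quantile normalization, −0.05 with the 75th percentile of detected probes and 0.26 with spike-in RNA. Group medians are therefore given relative to the median gene, and the 15-week differences that matter most with their range over these 6 scalings. The liver label was checked on the hepatocyte markers, of which 9 of the 9 on the array were above background at every time.

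Most of the receptors and factors stayed near their starting level. Of 41, 36 were above background on all arrays. Hnf4g, Vdr and Nr4a3 were above it on none, Nr6a1 at 15 weeks only, and Ppargc1b at 0 and 5 weeks only. Among members measured on both arrays, 5, Onecut1, Nr1i3, Esr1, Nr4a1 and Nr4a2, passed 2-fold in any of 5 comparisons (each time with 0 weeks, 10 with 5 and 15 with 10 weeks). Ppargc1b, above background on some arrays only, passed it as a bound in the main scaling, described below. The 5 are 13.9% of the 36 members above background throughout, beside 15.5% of all such genes. The range over the 4 times had a median of 0.52 on the log2 scale for members and 0.53 for all genes, and was under 0.5 for 17 members, or 47.2%, beside 46.3% of all genes. By this measure the members varied about as much as the array as a whole.

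Counted by comparison, 1 of 37 measured members was higher and 0 lower at 5 weeks against 0, where 3.87% of 17095 genes passed 2-fold (2.3% higher and 1.57% lower). At 10 weeks 0 of 36 passed, beside 4.45% of 17143 genes (2.92% higher and 1.53% lower). At 15 weeks 2 were higher and 2 lower of 36, beside 10.8% of 17562 genes (5.76% higher and 5.03% lower). Between 5 and 10 weeks 0 of 36 passed, beside 2.09% of 17108 genes (0.953% higher and 1.13% lower). From 10 to 15 weeks 0 were higher and 2 lower of 36, beside 8.01% of 17490 genes (3.95% higher and 4.06% lower). At a threshold of 1.5-fold, 4 members were higher and 1 lower at 5 weeks and 4 higher and 0 lower at 10 weeks, each beside 12.1% of genes, and 2 were higher and 7 lower at 15 weeks, beside 28.5%. None of these shares stands far from that of the array, and each turns on few genes.

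**Figure D1:**
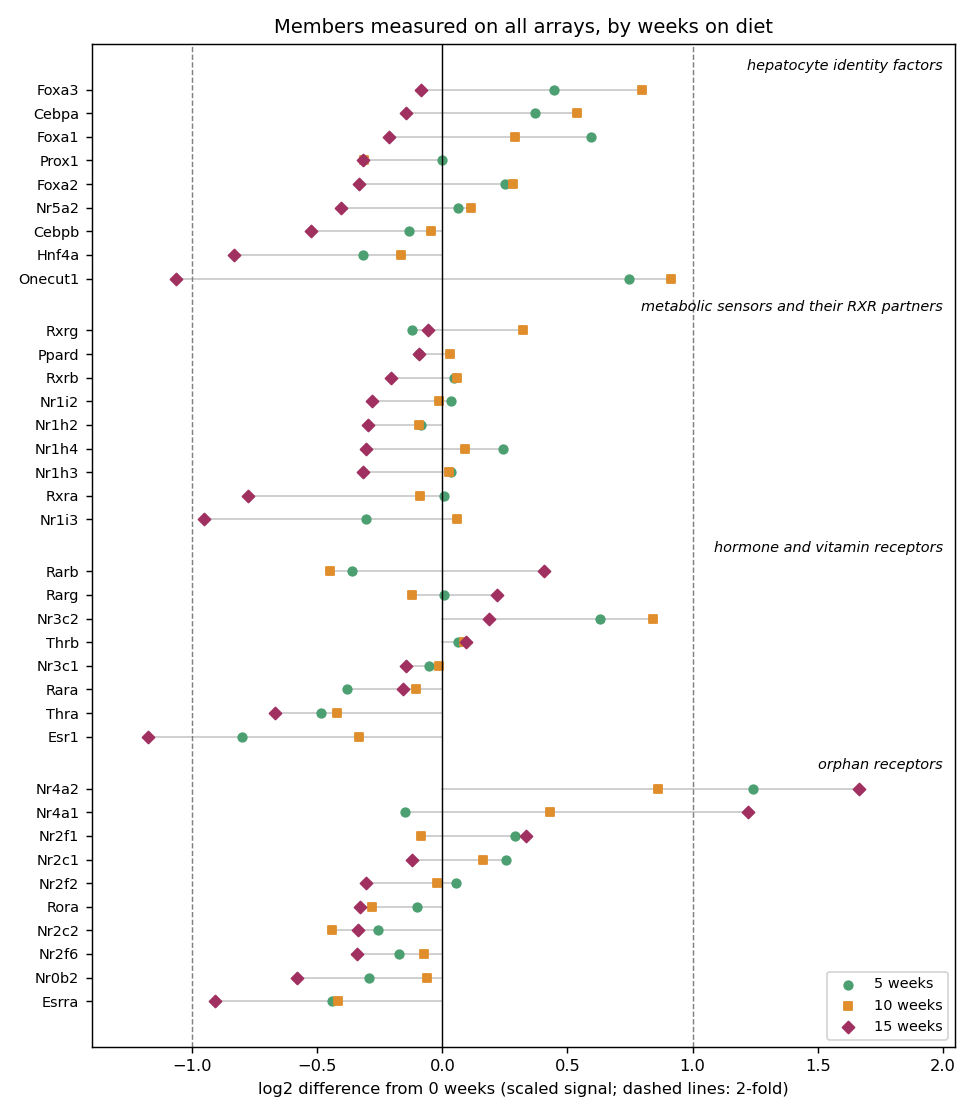
Log2 difference from 0 weeks (x axis) of the 36 members above background on all arrays, in 4 groups, with 1 point per array for 5, 10 and 15 weeks and dashed lines at 2-fold. The lowest point is that of 15 weeks for most identity factors and sensors, while Nr4a1 and Nr4a2 have their highest point at 15 weeks.

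Among the hepatocyte identity factors, Onecut1 had the widest range: it was higher at 5 and 10 weeks and lower at 15 weeks than at the start. Onecut1 encodes HNF6, a homeodomain factor of hepatocytes and bile ducts. Its probe (chr9:74737402-74737461, mm9) gave 3.89, 4.64, 4.80 and 2.83 at 0, 5, 10 and 15 weeks. The 10-week array was the highest and the 15-week array the lowest, 3.93-fold below it and 2.09-fold below 0 weeks. A dimmer Onecut1 probe gave −1.08, −0.76, −0.32 and −2.29, the same order of arrays. The log2 difference at 15 weeks against 0 was −1.06 and ranged from −1.06 to −0.55 over the 6 scalings, so that it stayed below 0 in all of them and was short of 2-fold in all 5 others than the main one. From 10 to 15 weeks it was −1.98, with a range of −1.98 to −1.38. As RNA came from whole liver, fewer cells of a type and less RNA per cell cannot be told apart, here and below.

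Hnf4a, which encodes the nuclear receptor required for most hepatocyte-specific genes, was lower at 15 weeks. Its probe (chr2:163398548-163398607, mm9) gave 8.31, 7.99, 8.15 and 7.48. The first 3 arrays lay close together and the 15-week array 1.78-fold under the first, short of 2-fold. Its log2 difference of −0.83 ranged from −0.83 to −0.32 over the scalings. Cebpb, an acute-phase factor of the C/EBP family, showed the same order in smaller steps, with 6.03, 5.89, 5.98 and 5.50. Its 15-week difference of −0.52 came to −0.01 at the other end of that range.

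The FOXA genes and Cebpa, whose products open chromatin at liver genes or drive genes of metabolism, followed another course. Foxa3 gave 2.69, 3.14, 3.49 and 2.61, Cebpa gave 5.03, 5.40, 5.57 and 4.88, and Foxa1 gave 2.42, 3.01, 2.71 and 2.21. Foxa2 gave 3.87, 4.12, 4.16 and 3.54 on its brighter probe and 0.72, 1.06, 1.0 and 0.14 on the other. These were highest at 5 or 10 weeks, by up to 1.74-fold over the start for Foxa3 at 10 weeks, and near or under the start at 15 weeks. Nr5a2 (LRH-1, a regulator of bile acid genes) was flatter at 3.96, 4.02, 4.07 and 3.55. Its dimmer probe differed in sign at 5 and 10 weeks, with log2 differences of −0.27 and −0.36 where the brighter had 0.06 and 0.11. At 15 weeks the dimmer probe had −0.74 and the brighter −0.40. Prox1, a homeodomain corepressor, gave 1.06, 1.06, 0.75 and 0.74.

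At 5 and 10 weeks the same 6 identity factors lay above 0 weeks under all 6 scalings on their main probes. They were Foxa1, Foxa2, Foxa3, Cebpa, Onecut1 and Nr5a2. For Nr5a2 the log2 difference was as small as 0.0023 at 5 weeks and 0.011 at 10 weeks. Its dimmer probe was lower at both times, by −0.27 and −0.36 in the main scaling. Relative to the median gene, the 9 measured identity factors had a median log2 difference of 0.27 at 5 weeks and 0.29 at 10 weeks. At 15 weeks it was −0.08 against the start and −0.37 against 10 weeks, with 8 of 9 below the median gene in the latter. All 9 had their lowest scaled signal at 15 weeks in the main scaling, a count that dropped to 2 of 9 with spike-in scaling. Over all 36 members 26 were lowest at 15 weeks, or 72.2% beside 59.2% of all genes, and with spike-in scaling 4 were, or 11.1% beside 8.01%. From 10 to 15 weeks 5 identity factors were lower under all scalings: Onecut1, Foxa3, Cebpa, Hnf4a and Foxa2. No share of all genes stands beside the counts over all scalings.

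Since HNF6 and HNF4A are known to act on each other's genes, the 250 bases before the start of Hnf4a are shown (RefSeq, GRCm38.p6, 5′ to 3′ on the gene's strand). Capitals mark ATCAATAA, a core of HNF6 sites, searched on both strands.
Hnf4a, chr2:163506607-163506856 (+): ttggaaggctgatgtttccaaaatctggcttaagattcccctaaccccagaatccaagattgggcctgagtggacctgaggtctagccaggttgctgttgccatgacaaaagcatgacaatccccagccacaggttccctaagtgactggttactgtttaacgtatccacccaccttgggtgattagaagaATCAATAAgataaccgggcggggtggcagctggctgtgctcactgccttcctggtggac
The match begins at −59, counted back from the start. This word was in 0.639% of 32851 mouse promoter windows of that length, in 2 of 54 windows of the 37 members in the table, and 0 times in the window of the other Hnf4a start (chr2:163546905-163547154). The word and the gene were chosen with the array values known, and a match of letters is a description of the sequence.

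**Figure D2:**
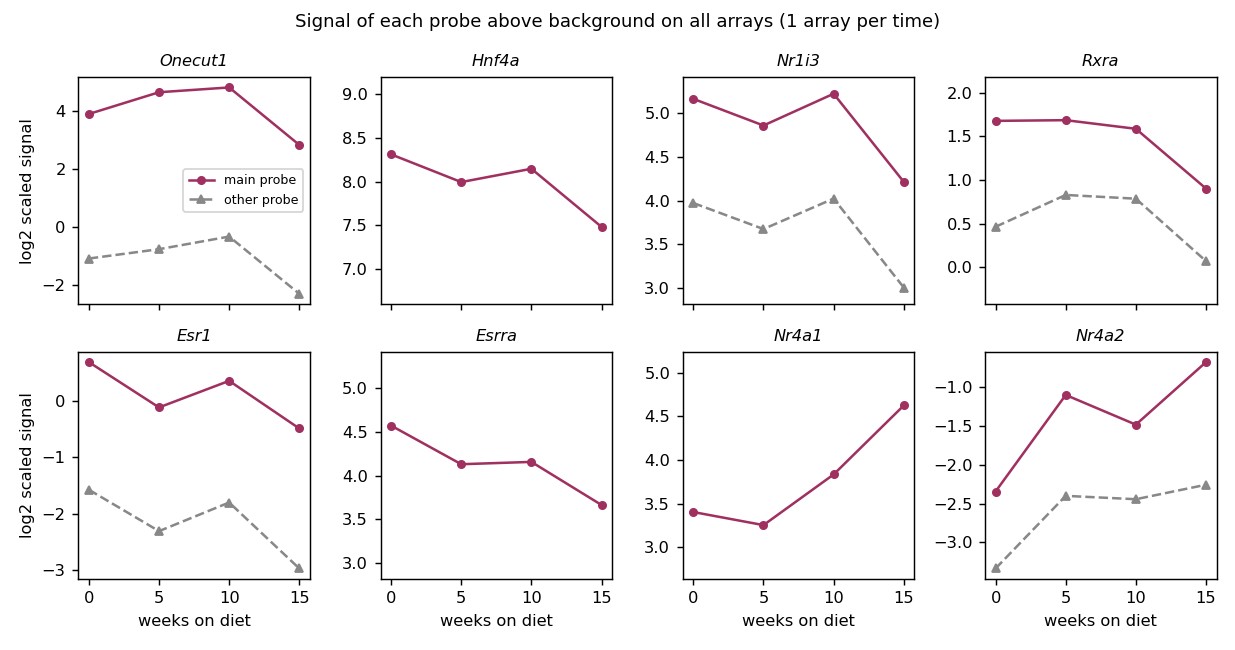
Log2 scaled signal (y axis, own scale in each panel) against weeks on the diet for every probe above background on all arrays of 8 members, with the brighter probe solid and any other dashed. Where a gene has 2 probes they are ordered alike over most arrays, as for Onecut1, Nr1i3 and Esr1, whose lowest array is that of 15 weeks on both probes.

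The metabolic sensors had the smallest median range over the 4 times, 0.35 on the log2 scale, beside 0.68 for the identity factors, 0.52 for the hormone and vitamin receptors and 0.43 for the orphans. Nr1i3 and Rxra stood out from it. Nr1i3 encodes CAR, the receptor that turns on drug-metabolising enzymes. Its probe (chr1:173148765-173148824, mm9) gave 5.17, 4.86, 5.23 and 4.22. The 15-week array was lowest, 2.01-fold under 10 weeks and 1.93-fold under the start. The other probe gave 3.97, 3.68, 4.03 and 3.01, with nearly the same steps between arrays. Over the scalings the log2 difference ran from −0.95 to −0.44 for 15 against 0 weeks and from −1.01 to −0.42 for 15 against 10 weeks.

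Rxra encodes RXR alpha, the dimer partner of most of these sensors, and gave 1.68, 1.68, 1.59 and 0.90. The first 3 arrays were nearly level and the 15-week array was 1.71-fold under the start, with a log2 difference of −0.78 to −0.26 over the scalings. Its other probe gave 0.46, 0.83, 0.79 and 0.07, lowest at the same time but with a smaller step of −0.39 from the start where the main probe had −0.78. Rxrb at 5.39, 5.44, 5.45 and 5.19 and Rxrg at 2.24, 2.12, 2.56 and 2.18 were close to the median gene at 15 weeks, with relative log2 differences of 0.05 and 0.19.

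The other 5 sensors, Nr1h4, Nr1h3, Nr1h2, Nr1i2 and Ppard, had smaller ranges over the 4 times than Nr1i3 and Rxra. The widest, that of Nr1h4, was 0.55 on the log2 scale, beside a median of 0.53 for all genes. Nr1h4 (FXR, the bile acid receptor) gave 6.05, 6.29, 6.14 and 5.74. Nr1h3 (LXR alpha) gave 6.02, 6.05, 6.04 and 5.70, and Nr1h2 (LXR beta) gave 5.08, 4.99, 4.99 and 4.78. Nr1i2 (PXR, a sensor of drugs and bile acids) gave 4.39, 4.42, 4.37 and 4.11, and Ppard 0.93, 0.84, 0.96 and 0.84. At 15 weeks these 5 lay between −0.07 and 0.15 of the median gene, and the sign of their difference from 0 weeks turned with the scaling. As a group the 9 sensors and partners had relative medians of 0.03, 0.04 and −0.05 at 5, 10 and 15 weeks, and 0 of 9 was past 2-fold against the start.

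Of the receptors for hormones and vitamins, Esr1 was lower at every later time. Esr1 encodes the estrogen receptor alpha of hepatocytes. Its main probe (chr10:5343056-5343115, mm9), printed at 10 spots per array, gave 0.69, −0.11, 0.36 and −0.49. The 10 spots ran from 0.57 to 0.76 at 0 weeks and from −0.60 to −0.42 at 15 weeks, without overlap. The difference, 2.26-fold, was well beyond the spot SDs of 0.0639 and 0.0547, which say nothing of the spread between mice. A dimmer probe gave −1.57, −2.30, −1.80 and −2.97, the same order, and both remaining probes were not above background. Over the scalings the 15-week log2 difference ran from −1.17 to −0.66, and 1 of the 10 spots on the 10-week array had bright neighbouring spots.

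Thra, the thyroid hormone receptor alpha, gave 3.40, 2.92, 2.98 and 2.74, up to 1.59-fold under the start, with a 15-week log2 difference of −0.67 to −0.16 over the scalings. Its dimmer probe differed by −0.15 at 15 weeks where the main probe had −0.67. Thrb, the main hepatic thyroid hormone receptor, gave 1.16, 1.22, 1.24 and 1.25. Its 15-week log2 difference ran from 0.09 to 0.61 over the scalings, and its dimmer probe had −0.29. The retinoic acid receptors also diverged from each other. Rarb gave 0.20, −0.15, −0.24 and 0.61, highest at 15 weeks and above the start by 0.33 to 0.92 over the scalings. Rarg gave 1.39, 1.39, 1.27 and 1.61, and Rara 4.54, 4.16, 4.44 and 4.39.

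Nr3c1, the glucocorticoid receptor, stayed within a narrow range, at 4.35, 4.30, 4.34 and 4.21. Nr3c2, the mineralocorticoid receptor, lay near the detection limit at −2.50, −1.87, −1.66 and −2.31, where the lowest probe above background was at −3.59 on the 0-week array. It was 1.79-fold over the start at 10 weeks, and the sign of its 15-week difference turned with the scaling. Vdr, the vitamin D receptor, was not well above background on any array. As a group these receptors had relative medians of −0.19, −0.10 and 0.22, with 6 of 8 above the median gene at 15 weeks.

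The orphan receptors held both members that were called higher. Nr4a1 (Nur77), an immediate-early receptor made by hepatocytes and macrophages among others, gave 3.40, 3.25, 3.83 and 4.62 on its single probe (chr15:101105071-101105130, mm9). The 15-week array was highest, 2.33-fold over the start, and the log2 difference of 1.22 ran from 1.22 to 1.73 over the scalings. Nr4a2 (Nurr1) gave −2.35, −1.10, −1.49 and −0.68 (chr2:56960699-56960758, mm9). It was 2.37-fold over the start at 5 weeks, 1.82-fold at 10 weeks and 3.17-fold at 15 weeks. Its dimmer probe gave −3.34, −2.40, −2.44 and −2.26, again with the start lowest and 15 weeks highest. These signals lie near background, and with normexp correction the log2 differences at 5 and 15 weeks came to 0.63 and 0.83, under 2-fold. Nr4a3 (Nor1), printed at 10 spots, was above background at 0 spots on every array, so no level can be given for it.

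The summed scaled signal of the 11 macrophage markers was 163, 291, 360 and 422 at the 4 times, and 8 of 11 were higher and 0 lower at 15 weeks. Their part in the NR4A values was not tested. NR4A genes are known to be switched on through the cAMP response element, whose core is TGACG. The windows of 250 bases before their starts are shown because each holds 4 copies of it (RefSeq, GRCm38.p6, 5′ to 3′ on the gene's strand). Capitals mark TGACG on either strand, so that the reverse strand's copies read CGTCA.
Nr4a1, chr15:101266596-101266845 (+): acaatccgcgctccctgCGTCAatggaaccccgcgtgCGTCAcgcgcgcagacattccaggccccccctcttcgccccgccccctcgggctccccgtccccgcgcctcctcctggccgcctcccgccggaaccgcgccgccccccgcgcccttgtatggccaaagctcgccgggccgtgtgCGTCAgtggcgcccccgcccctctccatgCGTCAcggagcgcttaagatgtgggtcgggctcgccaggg
Nr4a2, chr2:57124004-57124253 (−): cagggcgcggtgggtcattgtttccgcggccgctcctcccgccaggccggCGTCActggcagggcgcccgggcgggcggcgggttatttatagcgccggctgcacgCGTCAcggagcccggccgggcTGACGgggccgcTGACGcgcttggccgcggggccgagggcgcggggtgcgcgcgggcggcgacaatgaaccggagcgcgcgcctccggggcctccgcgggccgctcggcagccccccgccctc
Nr4a3, chr4:48045055-48045304 (+): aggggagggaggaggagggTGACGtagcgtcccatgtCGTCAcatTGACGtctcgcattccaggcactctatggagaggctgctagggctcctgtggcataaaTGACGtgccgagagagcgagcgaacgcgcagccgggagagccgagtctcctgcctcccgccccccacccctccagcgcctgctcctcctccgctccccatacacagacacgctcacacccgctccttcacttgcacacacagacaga
Counted back from the start, the nearest copy begins at −40 in Nr4a1, at −111 in Nr4a2 and at −147 in Nr4a3. At least 1 copy was in 17.8% of 32851 windows and in 11 of the 54 windows of members, and 4 or more in 0.137% of all windows and in 3 of the members', those shown. The window of Nr4a3 holds as many copies as the others while its RNA was not above background. The word was chosen with the array values known, and no binding was measured.

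Esrra, an orphan receptor that drives mitochondrial genes together with PGC-1 coactivators, was lower at each later time. It gave 4.57, 4.13, 4.16 and 3.66 on 1 probe (chr19:6985503-6985562, mm9). The 15-week array was 1.88-fold under the start, with a log2 difference of −0.91 to −0.40 over the scalings. The coactivator Ppargc1b (PGC-1 beta) was above background at 0 and 5 weeks, at −2.92 and −2.96, and not at 10 or 15 weeks. Against the lowest signal above background or its own signal, whichever was higher, it was at least 1.58-fold lower at 10 weeks and at least 2.28-fold lower at 15 weeks. These bounds are for the main scaling, and the 15-week bound is smaller with spike-in scaling. That lowest signal is the dimmest passing probe's, so the bounds are approximate.

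Nr0b2 (SHP, a corepressor that FXR induces) gave 2.23, 1.93, 2.16 and 1.64, 1.5-fold under the start at 15 weeks, with a log2 difference of −0.58 to −0.07 over the scalings. The remaining orphans stayed within narrow limits. Nr2f6 gave 6.81, 6.63, 6.73 and 6.46, Rora, which acts in the clock, gave 3.09, 2.99, 2.80 and 2.76, and Nr2f2 (COUP-TFII) gave 2.44, 2.49, 2.42 and 2.13. Nr2c1 and Nr2c2, the testicular receptors, gave 1.45, 1.70, 1.61 and 1.33, and 0.96, 0.70, 0.52 and 0.62. Nr2f1 (COUP-TFI) gave −0.66, −0.37, −0.74 and −0.32 and was above the start at 15 weeks on this probe under all scalings, by 0.24 to 0.85. Its dimmer probe gave −2.54, −2.47, −2.26 and −2.57, a log2 difference of −0.03 at 15 weeks. Nr6a1 was above background at 15 weeks alone, at −3.77, too near the limit of the other arrays for a fold. The group's relative medians were −0.11, −0.06 and −0.07 at 5, 10 and 15 weeks.

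**Figure D3:**
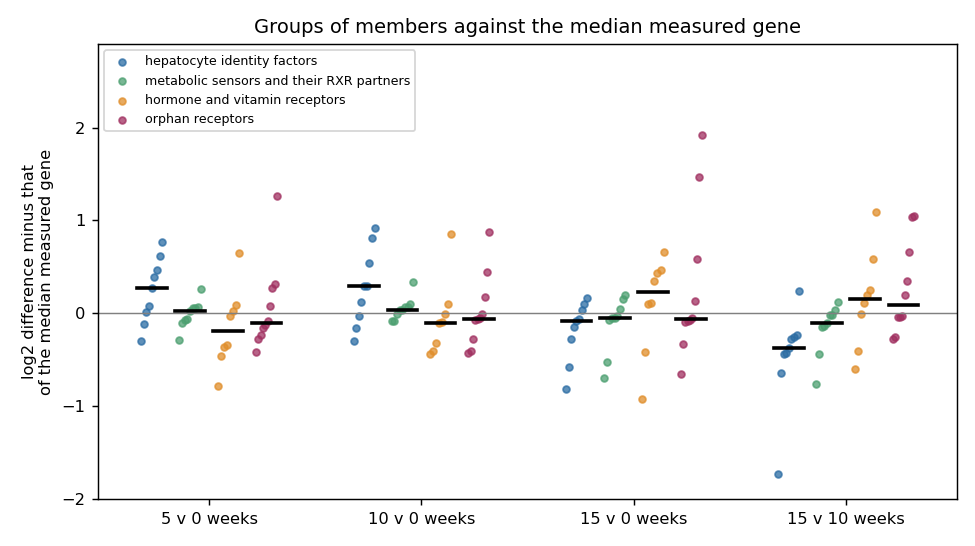
Log2 difference minus that of the median measured gene (y axis) for each member (points) in 4 groups, for 5, 10 and 15 weeks against 0 and for 15 against 10 weeks, with bars at group medians. The identity factors have the highest median at 5 and 10 weeks (0.27 and 0.29) and the lowest, −0.37, from 10 to 15 weeks.

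Counted over all members at 15 weeks, 9 lay below 0 weeks under all 6 scalings: Esr1, Onecut1, Nr1i3, Esrra, Hnf4a, Rxra, Thra, Nr0b2 and Cebpb. On their main probes, the 6 above it under all were Nr4a1, Nr4a2, Rarb, Rarg, Nr2f1 and Thrb. For the other 21 of 36 the sign depended on the scaling. No share of all genes stands beside these counts, so they do not set the members apart from the array. Genes with more than 1 measured probe showed what probe choice adds. For 17 such members the log2 differences of the 2 brightest probes at 15 weeks differed by a median of 0.22. That median was 0.18 for the 4398 such genes in all. Probes of opposite sign were seen at 15 weeks for 2 of the 17, Nr2f1 and Thrb, beside 1052 of the 4398. They were seen for 6 of 17 members at 5 weeks, beside 1568 of 4232 genes. At 10 weeks it was 5 of 16 members, beside 1507 of 4239 genes.

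Lists of known target genes are described beside the receptors' own RNA. Receptor activity was not measured, and the part of other regulators and of cell types in the listed genes was not tested. The lists were chosen with earlier results of these data known, and their medians are given relative to the median gene. The LXR list stood on the higher side at each time, with relative medians of 0.28, 0.36 and 0.40 at 5, 10 and 15 weeks, while Nr1h3 and Nr1h2 were flat. At 15 weeks 4 of its 10 measured genes were higher and 0 lower, in all 6 scalings. These were Srebf1, the regulator of fatty acid synthesis, at 2.74-fold, the sterol exporter Abcg1 at 2.48-fold, the desaturase Scd1 at 2.40-fold and the phospholipid transfer protein Pltp at 2.23-fold. Srebf1 was higher on each later array, with −0.54, 0.04, 0.77 and 0.92, and Pltp was past 2-fold already at 5 weeks, at 2.52-fold.

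The glucocorticoid receptor list stood on the lower side, with relative medians of −0.51, −0.24 and −0.78, beside the flat course of Nr3c1. At 15 weeks 6 of 11 were lower and 0 higher, and 2 of 11 were lower with spike-in scaling. Fkbp5, a cochaperone of the receptor, gave 3.77, 3.70, 3.89 and 1.86, level until 10 weeks and 3.78-fold under the start at 15 weeks. Tat, which breaks down tyrosine, gave 8.93, 8.24, 8.15 and 7.26. Those 2 kept a 2-fold difference in every scaling, with log2 ranges of −1.92 to −1.41 and −1.67 to −1.16. The others were the metallothioneins Mt1 and Mt2 at 2.19-fold and 2.65-fold lower, Tsc22d3 (GILZ) at 2.38-fold lower, and Zbtb16 at 2.04-fold lower after being 2.23-fold higher at 5 weeks. The Mt1 and Mt2 genes are close copies that can share signal.

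The CAR and PXR list was also on the lower side, with relative medians of −0.86, −0.46 and −0.53 over 8, 10 and 12 measured genes. These medians are thus not of the same genes, and Cyp2b10 is not in that of 5 weeks. The relation of the listed genes to the RNA of either receptor was not tested. Cyp2b10, the classic CAR target, gave 6.61 at 0 weeks, was not above background at 5 weeks, and gave −1.22 and 2.33 at 10 and 15 weeks. It was at least 1059-fold lower at 5 weeks, 227-fold lower at 10 weeks and 19.4-fold lower at 15 weeks, whereas Nr1i3 was lowest at 15 weeks. Cyp3a11, a PXR target, gave 9.47, 5.99, 7.40 and 8.09, lowest at 5 weeks too, while Nr1i2 was level. At 15 weeks 5 of 12 were lower and 0 higher: these and Cyp2b9, Cyp2c29 and Por, the electron donor of cytochromes P450, at 3.67-fold, 2.35-fold and 4.23-fold. With spike-in scaling 3 were lower and 1 higher. Cytochrome P450 genes of a family can share signal between probes.

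In the FXR and SHP list, without its member Nr0b2, 1 of 7 measured genes was higher at 5 weeks and 1 of 8 at 10 weeks. In both cases this was Cyp7a1, whose enzyme limits the making of bile acids and which SHP represses. Cyp7a1 gave 2.52, 4.15, 4.64 and 1.69: it was 3.1-fold and 4.35-fold over the start at 5 and 10 weeks and 7.73-fold lower at 15 than at 10 weeks. On main probes Nr5a2 and Nr0b2, which act on this gene, had log2 differences from the start between −0.58 and 0.11 at all times. The dimmer Nr5a2 probe had −0.74 at 15 weeks. Slc51b, an exporter of bile acids, was at least 4.66-fold lower at 5 weeks and 2.23-fold lower at 10 weeks, and Fetub, a plasma protein, was 2.13-fold lower at 15 weeks, a log2 difference of −1.09 to −0.58 over the scalings and under 2-fold with spike-in scaling. The list's relative median at 15 weeks was −0.08.

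The HNF4A list had relative medians of −0.05, −0.02 and −0.31, with 11 of 12 genes below the median gene at 15 weeks, the time at which Hnf4a was lowest. Over the scalings that relative median ran from −0.31 to −0.04. Called lower at 15 weeks were Mttp, which loads lipid onto apolipoprotein B, at 2.09-fold and G6pc, the last enzyme of glucose release, at 2.07-fold, and neither was past 2-fold with spike-in scaling. The ERRA and PGC-1 list, without Esrra, had a relative median of −0.47 at 15 weeks, with 1 of 7 genes above the median gene and 0 past 2-fold in either direction. Cpt1b, the muscle form of the enzyme that admits fatty acids to mitochondria, was 2.09-fold lower at 10 weeks.

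The PPAR list had 1 of 11 higher at 15 weeks, Pdk4, a brake on glucose oxidation, at 2.11-fold. It had 3 lower: Cyp4a14, Cyp4a10 and Acot1, enzymes of fatty acid oxidation and thioester cleavage, at 3.01-fold, 2.44-fold and 2.37-fold. That count of 3 was 1 with spike-in scaling and 0 in another of the scalings. Its relative median of −0.16 turned to 0.16 at the other end of the range over scalings, and Cyp4a14 and Cyp4a10 can share signal. In the thyroid hormone list 2 of 8 were higher at 15 weeks in all scalings, the corepressor Hr at 5.97-fold and the hormone Fgf21 at 5.93-fold. On main probes Thra was then under its start and Thrb above it, by 0.09 to 0.61 over the scalings. The dimmer Thrb probe had −0.29 in the main scaling. Fgf21 was also 5.37-fold higher at 5 weeks, and it answers to several other regulators. In the retinoid list Cyp26a1 and Cyp26b1, which break down retinoic acid, were lower at 15 weeks by 3.93-fold and 2.26-fold, with 0 of 7 higher. With spike-in scaling 1 was lower and 3 were higher, and Cyp26a1 was past 2-fold in every scaling, at −1.97 to −1.46 on the log2 scale. Cyp26a1 gave 0.46, −2.44, −0.74 and −1.51, lowest at 5 weeks, at which time Rarres1 was 2.54-fold higher.

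**Figure D4:**
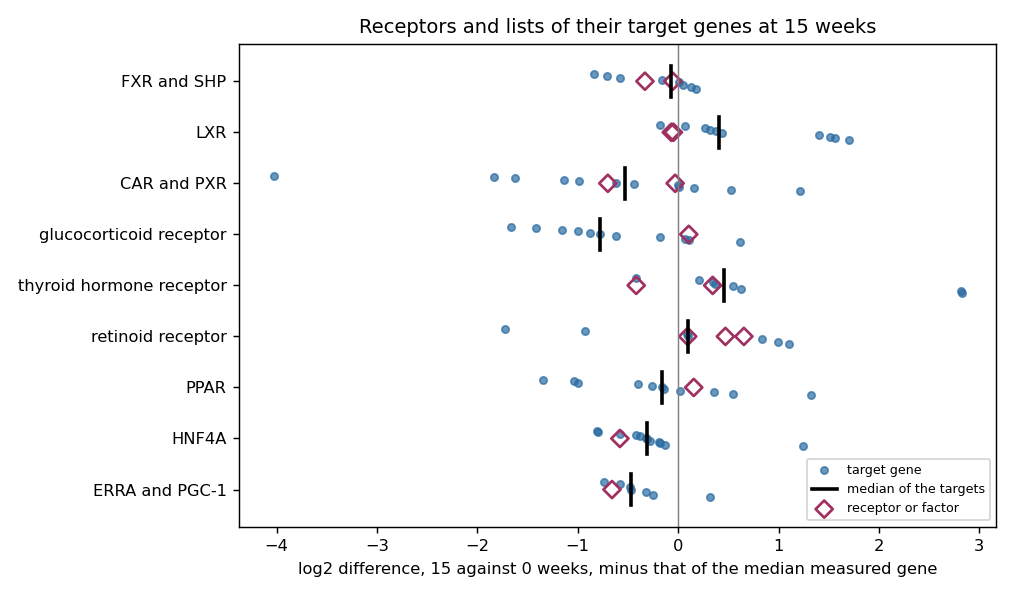
Log2 difference of 15 against 0 weeks minus that of the median measured gene (x axis) for the listed target genes of each receptor (points, with bars at their medians, members left out) and for the receptors or factors themselves (diamonds). The glucocorticoid receptor diamond lies at 0.11 beside a target median of −0.78, and both LXR diamonds lie just under 0 beside a target median of 0.40.

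Other nuclear receptors, listed for comparison, included 9 measured at 15 weeks. Of these 1 was higher and 0 lower: Pparg, the receptor that drives fat storage, gave 2.56, 2.36, 2.75 and 3.79, or 2.35-fold over the start at 15 weeks (1.23 to 1.74 on the log2 scale over the scalings). Nr1d1 (REV-ERB alpha), a repressor of the clock, gave 0.33, 1.91, 1.62 and 0.61, highest at 5 and 10 weeks, when it was 3.0-fold and 2.46-fold over the start. The hour at which livers were taken is not given in the sources used here. Esrrb was 2.24-fold higher at 10 weeks. Among 17 measured liver transcription factors outside the 41 genes, 2 were higher at 15 weeks (Srebf1, and the repressor Bcl6 at 2.01-fold) and 2 lower (Hhex at 2.28-fold and Klf15, which glucocorticoids induce, at 2.12-fold). With spike-in scaling the lower count was 0. Of 14 coregulators, 0 passed 2-fold at any time against the start (1 did at 15 weeks with spike-in scaling, Crebbp, and none with the other scalings), and from 10 to 15 weeks Crebbp was higher at 2.01-fold and Med1 lower at 2.46-fold.

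Markers of cell types moved over the same arrays. The sums below are in the main scaling only. Hepatocyte markers had a summed scaled signal of 13775, 12137, 13215 and 9000, lowest at 15 weeks. In that scaling all 9 identity factors and 59.2% of all genes were also lowest at 15 weeks. With spike-in scaling 2 of 9 identity factors were, beside 8.01% of all genes. Of the 9 hepatocyte markers, Cps1 and Ass1 were called lower at 15 weeks, and the list's relative median of −0.34 came to 0.02 with another scaling. Bile duct markers, whose cells also express Onecut1, summed to 14.3, 14.1, 4.63 and 17.1, lowest at 10 weeks, when Onecut1 was highest. Stellate cell and fibroblast markers summed to 158, 177, 128 and 256, and endothelial markers to 101, 124, 113 and 91.7. The 6 T and NK cell markers above background throughout summed to 6.27, 6.69, 10.6 and 7.54. A sum follows the brightest markers of its list. In the same scaling the mean log2 signal was 1.54, 1.41, 0.60 and 2.21 for stellate cell and fibroblast markers. For T and NK cell markers it was −1.15, −0.69, 0.19 and −0.19. Cd3g of that last list was not above background on every array. The part of these cell types in the members' values was not tested.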

How the data were processed

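Total RNA from frozen liver was labelled with Cy3 and hybridised to 4 one-colour Agilent arrays, per the labels' protocols, which the authors read with Agilent Feature Extraction 10.7.3.1, per the file headers. The deposited scanner files give fluorescence intensity on a linear scale with background subtracted, per the file headers. The deposited value table is that intensity divided by each array's median over non-control spots (column medians 1), on a linear scale with genes not centred, and served as an alternative. All 4 scans share 1 scan time.

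Each array's processed signals were scaled to the 75th percentile of its 59305 spots other than controls and put on a log2 scale. Control, uneven and outlier spots were left out, spots of a probe were averaged, and a gene was taken from its probe of highest mean (62 probes for 41 members). Of 55681 probes, an accession gave 27509 their gene in RefSeq (GRCm38.p6), a current symbol 3549 and an outdated one 404, and 24219 kept the file's name. Probe positions are in mm9. The signal floor was −3.59, −3.44, −3.58 and −4.11 (log2) at 0, 5, 10 and 15 weeks. No spot was saturated. The number of arrays limits the precision. Genes outside the 41 are named where they are in a list and at least 2-fold different. Members, lists and motifs were chosen with earlier results of these data known. Counting was tested on simulated data. Python 3.11.15, pandas 2.3.3 and limma 3.58.1 (normexp with offset 50, quantile) were used.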

Additional observations from a re-analysis of the deposited data

How the results depend on the processing

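No paired analysis was possible because each time has 1 array and no result comes from a test. The count of members past 2-fold at 5 weeks was 1 and became 0 with normexp, 2 with no background filter and 5 at a 1.5-fold threshold. At 10 weeks the count of 0 became 2 with no filter and 4 at 1.5-fold. At 15 weeks the count of 4 became 2 when scaled to detected probes, with spike-in scaling and relative to the median gene, 1 with normexp and 9 at 1.5-fold. The members' median log2 difference at 10 weeks was −0.01, and −0.12 with the array median or the deposited table and −0.093 with spike-in scaling. At 15 weeks it was −0.30, and −0.23 with the array median, the deposited table or normexp, −0.10 with detected probes, −0.012 with quantile normalization, −0.051 relative to the median gene and 0.21 with spike-in scaling. Of the 5 members past 2-fold, Nr4a1 stayed past it at 15 weeks in all 12 settings (the main one included). Nr4a2 did so in 11, Esr1 in 7 and Onecut1 in 5, and the lowest sizes were 1.22, 0.83, −0.53 and −0.55. Nr1i3, called for 15 against 10 weeks alone, was past 2-fold against 0 weeks in 0 of the 12. Its log2 difference for 15 against 10 weeks was −0.42 with spike-in scaling. Changing the background filter or leaving out spots with bright neighbours repeated the main 15-week values of these genes. The deposited table repeats array-median scaling. These counts are therefore not of 12 separate checks. Over all genes at 15 weeks 1011 were higher and 884 lower, against 591 and 440 with normexp and 2036 and 315 with spike-in scaling. The share of calls that were higher was 53.4%, 86.6% with spike-in scaling, 71.2% with detected probes and 74.6% relative to the median gene, and at 10 weeks 65.5%, or 54.3% with the array median. The causes were not tested. Signal near background limits Nr4a2, Nr3c2, Nr6a1 and Ppargc1b.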
